A study of Homo sapiens with 16 samples.

Results

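The genes described here are 47 genes of the DNA replication fork and of origin firing, listed by name from their textbook roles. The rule uses no measured value, but the list was drawn up with earlier results of these data known. They cover the sliding clamp and its loaders, the origin recognition complex, origin firing and helicase activation, the replicative polymerases and primase, single-strand DNA binding, Okazaki fragment processing, fork protection and chromatin assembly behind the fork. All 47 were found among the 78894 gene features of the deposited table, and all 47 passed the filter on low values that left 16218 genes for testing. Each had at least 1 read per 1000000 assigned reads (CPM) in all 16 libraries, so no gene of the list entered through the group in which it was high. The lowest value was that of CDC7, at 1.74 CPM or 19 reads in 1 library.

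All libraries came from T47D, an estrogen receptor-positive human breast cancer cell line with luminal features. The 4 groups were FAH knockout cells given 500 nM abemaciclib for 3 days, FAH knockout cells given vehicle (DMSO), cells with a control guide given the same abemaciclib treatment, and cells with a control guide given vehicle, with 4 libraries each. FAH encodes fumarylacetoacetate hydrolase, which completes the breakdown of tyrosine, and abemaciclib inhibits the cell cycle kinases CDK4 and CDK6. The labels give 1 knockout and 1 control genotype, with neither the guide nor whether the cells were a clone or a pool, so an effect of the knockout and any other difference between these lines cannot be told apart. They also do not state whether replicate libraries stem from separate cultures, so p-values measure only the spread among the libraries, and that spread may be technical.

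The libraries held 9915776 to 11963093 assigned reads, and 1 CPM stood for 9.92 to 11.96 reads. As a check of the labels, FAH averaged 5.76 ± 0.744 CPM in abemaciclib-treated knockout cells, 6.65 ± 0.323 CPM in vehicle-treated knockout cells, 23.97 ± 1.35 CPM in abemaciclib-treated control cells and 26.5 ± 1.57 CPM in vehicle-treated control cells (SD, n = 4 each), with no overlap between genotypes. All 7 luminal markers, ESR1 and GATA3 among them, were detected in every group. They summed to 7257 to 12749 CPM per library, most of it KRT8 and KRT18, against 2.74 to 5.94 CPM for 4 leukocyte markers. The luminal markers differed between genotypes in both directions. Under vehicle KRT8 averaged 5048 CPM in knockout cells and 2700 CPM in control cells, and KRT18 3120 and 1725 CPM. ESR1 averaged 76.1 CPM in knockout cells and 97.3 CPM in control cells, and GATA3 1261 and 1562 CPM. The 6 basal or mesenchymal markers summed to 12.8 to 20.6 CPM, the 3 fibroblast markers to 41.3 to 61.2 CPM, almost all of it COL1A1, and the 2 endothelial markers to 0 to 0.179 CPM, with CDH5 at 0 in all 4 groups.

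Replication begins at origins bound by the origin recognition complex, on which the MCM helicase is loaded. The DBF4-dependent kinase CDC7, together with cyclin-dependent kinases, then brings CDC45 and the GINS complex to the helicase, and the active helicase opens a fork. Primase and polymerase alpha start new strands, the clamp PCNA is placed on them by the replication factor C loaders, and polymerases epsilon and delta extend them on the leading and lagging strands. Most of these genes are transcribed around the G1/S boundary by E2F factors, which the retinoblastoma protein holds in check until CDK4 and CDK6 phosphorylate it.

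Most of these genes were lower under abemaciclib in both genotypes. Values were compared as log2(CPM + 1) with limma across all tested genes, calls required an adjusted p under 0.05, and log2 fold changes below are on that scale, on which the change of a low gene comes out too small. In knockout cells, 42 of 47 were lower under abemaciclib than under vehicle, where 27.4% of all tested genes were lower, and 0 of 47 were higher, where 11% of all tested genes were. In control cells, 43 of 47 were lower, where 31.1% of all tested genes were, and 0 of 47 were higher, where 19.6% were. A fall of at least 2-fold was called for 19 of 47 in knockout cells and 15 of 47 in control cells, against 1.95% and 2.09% of all tested genes. In all, 41 of the 47 were lower in both genotypes, where 21.5% of all tested genes were, and 14 fell at least 2-fold in both, where 1.58% of all tested genes did.

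The summed level of the 47 genes was 1139 to 1168 CPM in abemaciclib-treated knockout libraries, against 2404 to 2468 CPM in vehicle-treated knockout libraries. It was 1388 to 1448 CPM in abemaciclib-treated control libraries, against 2759 to 2794 CPM in vehicle-treated control libraries. Every abemaciclib library lay below every vehicle library. The median log2 fold change of the 47 genes was -0.94 in knockout cells and -0.82 in control cells, beside -0.07 and -0.05 for all tested genes. As a share of the vehicle mean, abemaciclib left a median of 50.5% of the CPM in knockout cells, with a range from 12.1% for CLSPN to 93.5% for ORC5, and 55.7% in control cells, with a range from 21.9% for PRIM1 to 103% for ORC2. Across the 47 genes, the effect of abemaciclib in knockout cells and that in control cells, which share no library, correlated with Pearson's r of 0.91 and Spearman's rho of 0.91. This is a description of genes that are not independent of each other.

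Markers of cycling cells moved with these genes. All 8 of 8 (MKI67, TOP2A, CCNB1, CDK1, AURKA, BUB1, PLK1 and CENPF) were called lower under abemaciclib in both genotypes, with a median log2 fold change of -2.43 in knockout cells and -2.27 in control cells, and none was at 0 in any group. They summed to 150 to 159 CPM in abemaciclib-treated knockout libraries and 843 to 863 CPM in vehicle-treated knockout libraries, and to 215 to 220 CPM in abemaciclib-treated control libraries and 1009 to 1045 CPM in vehicle-treated control libraries. MKI67, a marker of proliferating cells, averaged 5.13 ± 0.0876 CPM in abemaciclib-treated knockout cells, 84.2 ± 1.67 CPM in vehicle-treated knockout cells, 12.1 ± 0.991 CPM in abemaciclib-treated control cells and 89.6 ± 4.16 CPM in vehicle-treated control cells (SD, n = 4 each). The part of the cycling markers in the results was not tested, and in bulk RNA fewer cells in S phase and less RNA of these genes per cell cannot be told apart.

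CPM depends on the total of each library. With the libraries rescaled by the median of ratios, all tested genes split into 2844 lower and 3229 higher in knockout cells, against 4444 and 1780 as deposited, and into 3999 lower and 4188 higher in control cells, against 5039 and 3181 as deposited. Quantile normalization set the median of all tested genes in knockout cells at 0.03, against -0.07 as deposited. Under rescaling 41 of the 47 genes were lower in knockout cells and 41 in control cells, and under quantile normalization 41 and 40.

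**Figure D1:**
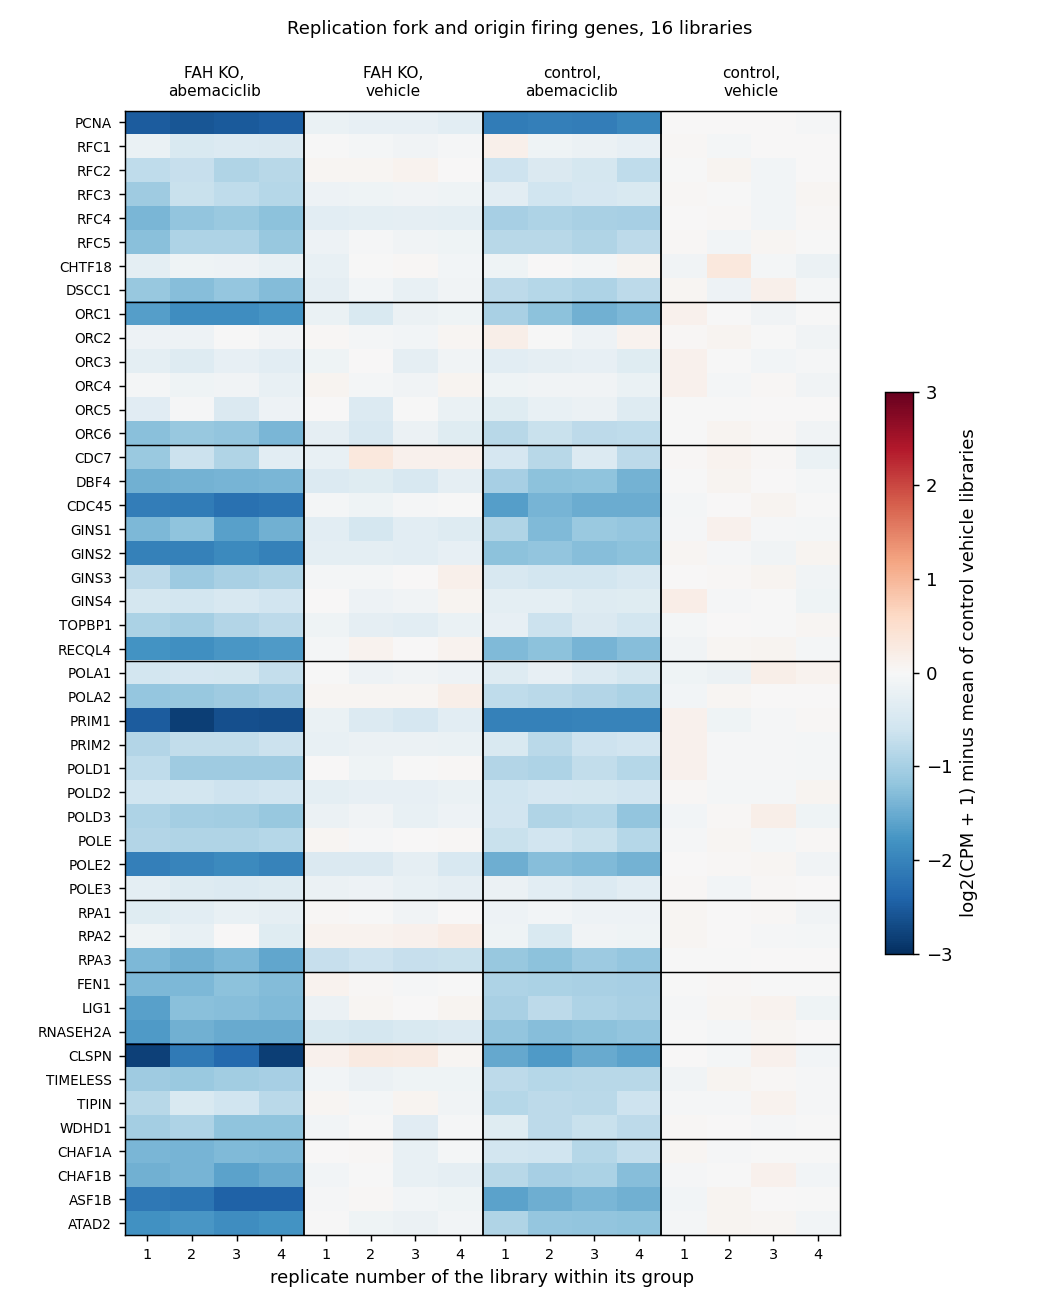
Heat map of log2(CPM + 1) of each of the 47 genes (down the page, by role) in each of the 16 libraries, minus the mean of the vehicle-treated control libraries. Columns run from abemaciclib-treated knockout, vehicle-treated knockout and abemaciclib-treated control to vehicle-treated control libraries. Both abemaciclib groups are blue (lower) over most rows, with sums of 1139 to 1168 and 1388 to 1448 CPM, and the rows of ORC2, ORC4 and CHTF18 stay pale.

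The promoters of these genes were read for the letters that E2F factors are known to bind, since 41 of the 47 genes fell in both genotypes. Sequences came from RefSeq on GRCh38.p14, with 250 bases before and 50 bases after the annotated start. Where a gene had several starts only the outermost was used, and 40 of the 47 genes had a window. RPA2, RPA3, POLD3, DSCC1, GINS4, RECQL4 and ATAD2 were not matched. E2F-type letters were any of TTTCCCGC, TTTGGCGC, TTTCGCGC and TTTGCCGC on either strand, and CCAAT and TTTGAA, the letters of the cell cycle element called CHR, were searched in the same way, with overlapping matches of different motifs each counted. E2F-type letters stood in 13 of 40 windows (32.5%), against 3.34% of the 27305 genes with a window and 5.53% of the 10077 promoters of tested protein-coding genes. CCAAT stood in 21 of 40 (52.5%), against 35.7% and 37.4%. TTTGAA stood in 2 of 40 (5.0%), those of DBF4 and ASF1B, against 15.5% and 9.57%. A match describes letters in a window and is not a bound site.

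The next 6 stretches run 5′ to 3′ on the gene's strand from 90 bases before to 10 bases after the start. They belong to 4 genes that carry the E2F-type letters and fell at least 2-fold in both genotypes, and to PRIM1 and ASF1B, which fell at least 2-fold without a match. The PRIM1 stretch holds ttcccgc, which is TTTCCCGC without its first letter, so the lack of a match there depends on the words chosen. Capitals mark the E2F-type letters, here on the opposite strand of the words given above. All 6 lie on the minus strand, at chr20:5126613-5126712 for PCNA, chr16:85688945-85689044 for GINS2, chr14:49688205-49688304 for POLE2, chr1:35769969-35770068 for CLSPN, chr12:56752314-56752413 for PRIM1 and chr19:14136580-14136679 for ASF1B.
PCNA: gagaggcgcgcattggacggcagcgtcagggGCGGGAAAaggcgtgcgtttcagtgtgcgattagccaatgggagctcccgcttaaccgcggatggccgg
GINS2: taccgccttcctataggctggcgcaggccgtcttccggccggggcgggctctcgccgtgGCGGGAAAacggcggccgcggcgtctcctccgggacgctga
POLE2: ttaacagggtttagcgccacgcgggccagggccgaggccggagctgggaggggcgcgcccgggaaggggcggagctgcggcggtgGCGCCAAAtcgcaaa
CLSPN: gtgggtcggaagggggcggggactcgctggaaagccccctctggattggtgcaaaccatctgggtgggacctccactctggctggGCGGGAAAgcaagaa
PRIM1: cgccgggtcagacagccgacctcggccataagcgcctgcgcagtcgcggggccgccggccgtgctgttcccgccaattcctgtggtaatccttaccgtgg
ASF1B: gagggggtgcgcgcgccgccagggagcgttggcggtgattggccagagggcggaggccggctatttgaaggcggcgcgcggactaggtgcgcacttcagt

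The 13 genes with the letters were TOPBP1, ORC3, POLA2, LIG1, PCNA, GINS2, POLA1, POLE, POLE2, RFC3, CLSPN, GINS3 and GINS1. Their median log2 fold change under abemaciclib was -1.02 in knockout cells and -0.85 in control cells, beside -0.93 and -0.76 for the 27 genes without them. The ranges of the 2 sets overlapped widely, from -2.69 to -0.19 with the letters and from -2.31 to -0.09 without them in knockout cells. Between genotypes under abemaciclib, knockout against control, the medians were -0.41 with the letters and -0.22 without them. These ranges overlapped too, from -0.93 to -0.02 and from -0.82 to 0.09. No test was made of these differences.

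**Figure D2:**
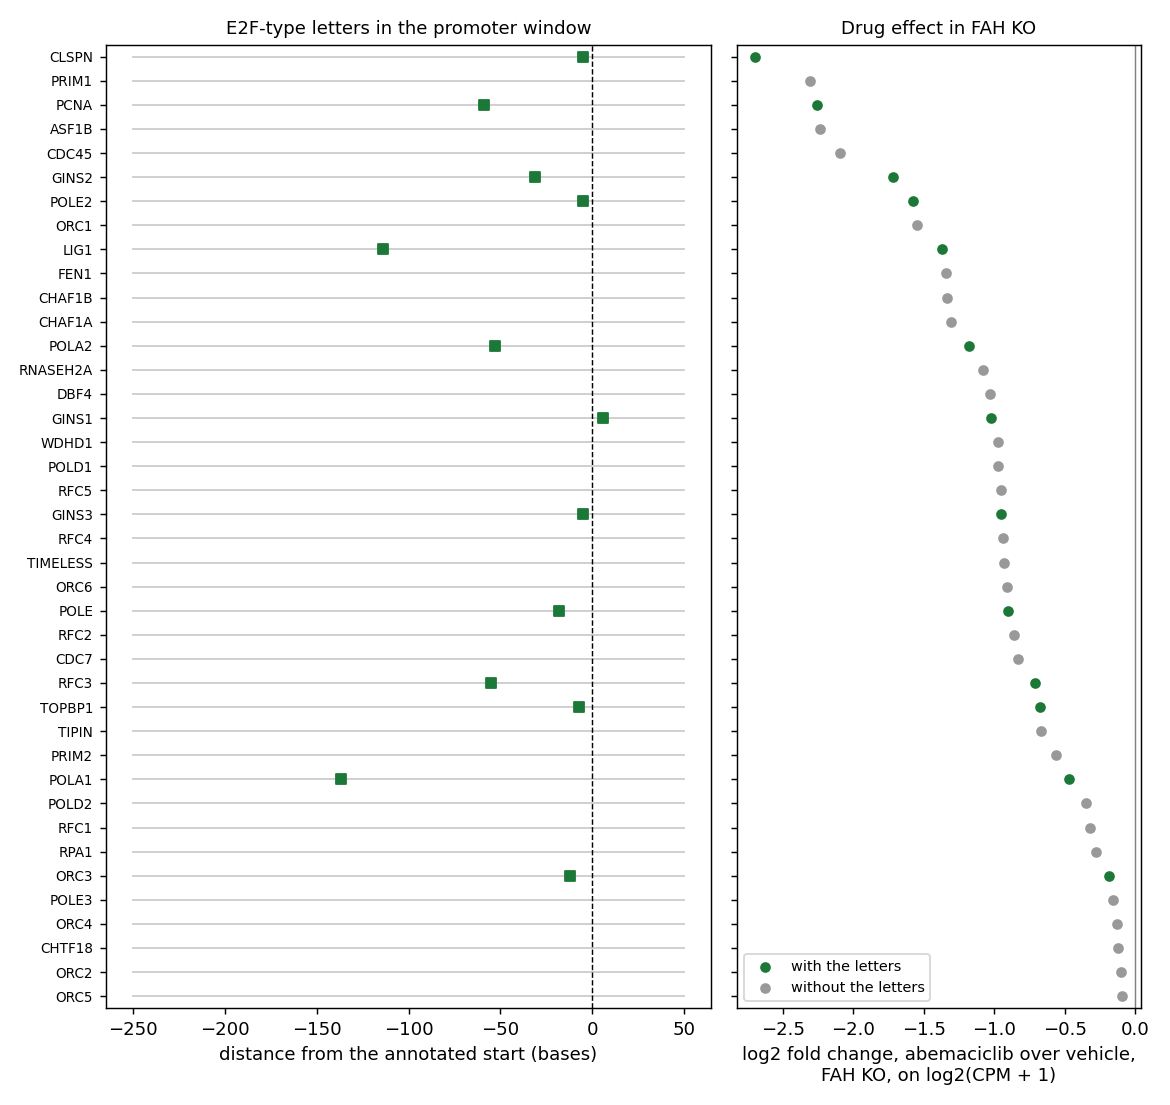
Left, the position of each E2F-type match in the promoter windows of the 40 genes, in bases from the annotated start (dashed line), with genes down the page. Right, the log2 fold change of the same genes for abemaciclib over vehicle in knockout cells, coloured by presence of the letters; genes with the letters (median -1.02) and without them (median -0.93) are mixed along the axis.

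Among the clamp and its loaders, 7 of 8 were lower under abemaciclib in knockout cells and 6 of 8 in control cells. PCNA (chr20:5114953-5126626, minus strand), the ring that tethers polymerases to DNA, had 93.2, 88.4, 92.5 and 95.1 CPM in abemaciclib-treated knockout cells, against 461, 445, 446 and 426 CPM in vehicle-treated knockout cells. It had 124, 127, 126 and 136 CPM in abemaciclib-treated control cells, against 533, 536, 533 and 523 CPM in vehicle-treated control cells. The treatments lay far apart in both genotypes, and the knockout libraries lay below the control libraries under either treatment. The log2 fold change was -2.26 in knockout cells (limma adjusted p = 5.4e-33) and -2.04 in control cells (limma adjusted p = 1.7e-31), each with an SE of 0.0339. RFC2, RFC3, RFC4 and RFC5, small subunits that the clamp loaders share, were lower in both genotypes, by log2 fold changes from -0.95 to -0.71 in knockout cells and from -0.97 to -0.47 in control cells.

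The large subunits differed from them. RFC1, the large subunit of the main loader, had 35.4, 29.5, 30.3 and 30.1 CPM in abemaciclib-treated knockout cells, against 40.5, 39.4, 37.6 and 39.8 CPM in vehicle-treated knockout cells, a log2 fold change of -0.32 (limma adjusted p = 0.00015). It had 45.8, 37.3, 36.1 and 34.5 CPM in abemaciclib-treated control cells, against 41.8, 39.4, 41.2 and 41.1 CPM in vehicle-treated control cells, a log2 fold change of -0.09 (limma adjusted p = 0.23). Replicate 1 was the highest library of both abemaciclib groups, and in control cells it alone exceeded the vehicle libraries. Without control abemaciclib replicate 1 the log2 fold change in control cells was -0.18 (limma adjusted p = 0.00904). CHTF18, the large subunit of the alternative loader that acts on the leading strand, had 16.9 to 19.1 CPM in abemaciclib-treated knockout cells, 17.9 to 21.4 CPM in vehicle-treated knockout cells, 18.9 to 22.3 CPM in abemaciclib-treated control cells and 18.4 to 26.4 CPM in vehicle-treated control cells. Its treatments overlapped in both genotypes, with log2 fold changes of -0.12 (limma adjusted p = 0.26) and -0.02 (limma adjusted p = 0.86). DSCC1, a partner of CHTF18 in that loader, was at 44.4% of its vehicle mean in knockout cells and 53.1% in control cells, with limma adjusted p = 8.3e-13 and 1.4e-10.

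In the origin recognition complex, ORC1 and ORC6 fell, and the subunits ORC2 to ORC5 had log2 fold changes between -0.30 and 0.03. ORC1, the largest subunit, whose protein is known to be destroyed in S phase, had 2.65, 2.13, 2.12 and 2.36 CPM in abemaciclib-treated knockout cells, against 9.03, 7.28, 9.14 and 9.43 CPM in vehicle-treated knockout cells, a log2 fold change of -1.55 (SE 0.107, limma adjusted p = 5.2e-14). It had 4.86, 3.85, 3.23 and 3.47 CPM in abemaciclib-treated control cells, against 11.5, 10.3, 9.68 and 10.4 CPM in vehicle-treated control cells, a log2 fold change of -1.25 (limma adjusted p = 7.3e-12). The treatments did not overlap in either genotype. ORC6, the smallest subunit, had a log2 fold change of -0.91 in knockout cells and -0.76 in control cells.

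ORC2 had 13.9, 13.9, 15.4 and 14.3 CPM in abemaciclib-treated knockout cells, against 16.1, 14.96, 14.7 and 16.3 CPM in vehicle-treated knockout cells. It had 17.7, 15.6, 14.02 and 16.9 CPM in abemaciclib-treated control cells, against 15.9, 16.7, 15.6 and 14.4 CPM in vehicle-treated control cells. The treatments overlapped in both genotypes, with log2 fold changes of -0.10 (SE 0.0734, limma adjusted p = 0.29) and 0.03 (limma adjusted p = 0.76). ORC4 had 18.5 to 20.8 CPM in abemaciclib-treated knockout cells, 20.1 to 22.9 CPM in vehicle-treated knockout cells, 18.5 to 19.9 CPM in abemaciclib-treated control cells and 20.1 to 23.6 CPM in vehicle-treated control cells. The treatments overlapped in knockout cells and did not in control cells. The log2 fold changes of -0.13 in knockout cells (limma adjusted p = 0.12) and -0.14 in control cells (limma adjusted p = 0.07) were not called, and the second was called without control vehicle replicate 4 (-0.17, limma adjusted p = 0.0394).

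ORC3 and ORC5, which join ORC2 and ORC4 in the core of the complex, were called lower in control cells and not in knockout cells. ORC3 had 10.52, 9.83, 10.96 and 10.4 CPM in abemaciclib-treated knockout cells, against 11.95, 13.4, 10.7 and 12.1 CPM in vehicle-treated knockout cells, a log2 fold change of -0.19 (SE 0.0775, limma adjusted p = 0.055) that was called without knockout vehicle replicate 3 (-0.24, limma adjusted p = 0.0216) and with no trend in the fit (limma adjusted p = 0.0272). ORC5 had 11.8, 14.9, 11.04 and 13.5 CPM in abemaciclib-treated knockout cells, against 15.4, 11.3, 15.1 and 13.03 CPM in vehicle-treated knockout cells, a log2 fold change of -0.09 (SE 0.0893, limma adjusted p = 0.46). In control cells the log2 fold change was -0.30 for ORC3 (limma adjusted p = 0.0017) and -0.28 for ORC5 (limma adjusted p = 0.0084). The call for ORC5 was lost under quantile normalization (limma adjusted p = 0.0615). The difference between genotypes was not called for either gene, at 0.11 for ORC3 (limma adjusted p = 0.61) and 0.19 for ORC5 (limma adjusted p = 0.38).

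All 9 genes of origin firing and helicase activation were lower under abemaciclib in both genotypes, with a median log2 fold change of -1.02 in knockout cells and -1.12 in control cells. CDC45 (chr22:19479459-19520612, plus strand), which joins the helicase at the moment of firing, had 6.77, 6.64, 5.95 and 6.08 CPM in abemaciclib-treated knockout cells, against 30.2, 29.03, 31.0 and 31.1 CPM in vehicle-treated knockout cells. It had 9.44, 11.4, 10.6 and 10.6 CPM in abemaciclib-treated control cells, against 30.3, 31.6, 33.3 and 31.2 CPM in vehicle-treated control cells. The genotypes overlapped under vehicle and were apart under abemaciclib, where all knockout libraries were below all control libraries. The log2 fold change was -2.09 in knockout cells (limma adjusted p = 3.5e-23) and -1.50 in control cells (limma adjusted p = 3.9e-19), each with an SE of 0.0682.

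The 4 GINS subunits, which complete the active helicase, fell by different amounts. GINS2 (chr16:85676198-85690073, minus strand) had 39.3, 39.3, 42.9 and 39.8 CPM in abemaciclib-treated knockout cells, against 133, 135, 131 and 139 CPM in vehicle-treated knockout cells, a log2 fold change of -1.71 (SE 0.0431, limma adjusted p = 1.9e-26). It had 69.2, 71.9, 66.9 and 69.7 CPM in abemaciclib-treated control cells, against 171, 162, 152 and 174 CPM in vehicle-treated control cells, a log2 fold change of -1.23 (limma adjusted p = 2.9e-22). The 4 groups of GINS2 did not overlap. GINS1 (chr20:25407727-25452628, plus strand) had 11.2, 12.3, 9.003 and 10.3 CPM in abemaciclib-treated knockout cells, against 23.8, 20.4, 23.6 and 22.5 CPM in vehicle-treated knockout cells, a log2 fold change of -1.02 (SE 0.0831, limma adjusted p = 3.6e-12). It had 15.3, 11.3, 13.2 and 12.8 CPM in abemaciclib-treated control cells, against 29.1, 32.6, 28.98 and 28.3 CPM in vehicle-treated control cells, a log2 fold change of -1.12 (limma adjusted p = 1.8e-13). Its treatments were apart in both genotypes, while the genotypes overlapped under abemaciclib. GINS3 was at 48.2% of its vehicle mean in knockout cells and 67.4% in control cells, and GINS4 at 70.0% and 78.1%.

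CDC7 and DBF4, the catalytic and activating subunits of the kinase that fires origins, were both lower. DBF4 (chr7:87876216-87909541, plus strand) had 8.69, 8.90, 9.13 and 9.31 CPM in abemaciclib-treated knockout cells, against 19.1, 19.7, 17.9 and 21.0 CPM in vehicle-treated knockout cells, a log2 fold change of -1.03 (SE 0.0759, limma adjusted p = 3.0e-13). It had 12.2, 10.3, 10.45 and 8.96 CPM in abemaciclib-treated control cells, against 25.3, 26.9, 25.5 and 24.4 CPM in vehicle-treated control cells, a log2 fold change of -1.21 (limma adjusted p = 2.4e-15). The abemaciclib libraries of the 2 genotypes overlapped, and the vehicle libraries did not. CDC7 had a log2 fold change of -0.83 in knockout cells and -0.64 in control cells, from levels of 1.74 to 6.28 CPM that carry a large counting error. RECQL4, a helicase with a domain needed for initiation, had 11.1 to 12.3 CPM in abemaciclib-treated knockout cells, against 40.0 to 45.1 CPM in vehicle-treated knockout cells, and 15.2 to 17.3 CPM in abemaciclib-treated control cells, against 39.2 to 44.4 CPM in vehicle-treated control cells. TOPBP1, the scaffold that helps to recruit GINS, had the smaller log2 fold changes of -0.67 and -0.47.

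The 10 polymerase and primase genes were all lower in both genotypes, with a median log2 fold change of -0.89 in knockout cells and -0.77 in control cells. PRIM1 (chr12:56731596-56752373, minus strand), the catalytic subunit of primase, had 4.07, 3.01, 3.57 and 3.54 CPM in abemaciclib-treated knockout cells, against 24.03, 20.5, 19.3 and 22.1 CPM in vehicle-treated knockout cells, a log2 fold change of -2.31 (SE 0.0841, limma adjusted p = 9.0e-22). It had 5.98, 6.00, 6.08 and 6.17 CPM in abemaciclib-treated control cells, against 30.2, 25.3, 26.7 and 28.5 CPM in vehicle-treated control cells, a log2 fold change of -2.02 (limma adjusted p = 3.8e-20). The 4 groups of PRIM1 were separate. PRIM2, its regulatory partner, kept 66.9% of its vehicle mean in knockout cells and 64.6% in control cells. POLE2 (chr14:49643555-49688422, minus strand), the second subunit of polymerase epsilon, had 5.85, 6.29, 6.62 and 6.17 CPM in abemaciclib-treated knockout cells, against 20.1, 20.05, 22.7 and 19.4 CPM in vehicle-treated knockout cells, a log2 fold change of -1.57 (SE 0.0727, limma adjusted p = 7.8e-19). It had 9.34, 10.7, 10.45 and 9.73 CPM in abemaciclib-treated control cells, against 27.9, 28.2, 28.8 and 25.4 CPM in vehicle-treated control cells, a log2 fold change of -1.37 (limma adjusted p = 2.9e-17). Its 4 groups were separate as well.

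The catalytic polymerase subunits had smaller log2 fold changes than PRIM1 and POLE2. POLE, the catalytic subunit of polymerase epsilon, had log2 fold changes of -0.90 in knockout cells and -0.69 in control cells. POLD1, that of polymerase delta, had -0.97 and -0.84, and POLA1, that of polymerase alpha, had -0.47 and -0.40. POLE3, a histone-fold subunit of polymerase epsilon, had the smallest log2 fold changes of these 10 genes, at -0.16 in knockout cells (limma adjusted p = 0.0065) and -0.30 in control cells (limma adjusted p = 1.6e-06). Its call in knockout cells was lost with rescaled libraries (-0.07, limma adjusted p = 0.260).

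The 3 subunits of replication protein A, which coats single-stranded DNA, did not fall alike. RPA3 (chr7:7636518-7718607, minus strand), the smallest subunit, had 92.9, 87.4, 92.9 and 80.8 CPM in abemaciclib-treated knockout cells, against 148, 154, 148 and 151 CPM in vehicle-treated knockout cells, a log2 fold change of -0.76 (SE 0.0396, limma adjusted p = 2.3e-17). It had 107, 102, 111 and 106 CPM in abemaciclib-treated control cells, against 238, 235, 241 and 241 CPM in vehicle-treated control cells, a log2 fold change of -1.16 (limma adjusted p = 1.5e-22). The vehicle-treated control libraries stood well above every other group. RPA1 kept 82.4% of its vehicle mean in knockout cells and 90.9% in control cells, and RPA2 kept 80.0% and 86.5%. In control cells the call for RPA1 was lost with rescaled libraries (-0.06, limma adjusted p = 0.243), and that for RPA2 (-0.21, limma adjusted p = 0.02) was lost with rescaled libraries (-0.14, limma adjusted p = 0.129), without control abemaciclib replicate 2 (-0.12, limma adjusted p = 0.16) and without control vehicle replicate 1 (-0.19, limma adjusted p = 0.0589).

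All 3 genes of Okazaki fragment processing were lower in both genotypes. RNASEH2A (chr19:12806556-12815201, plus strand), the catalytic subunit of the nuclease that cuts RNA in RNA-DNA hybrids, had 14.9, 18.2, 17.2 and 17.1 CPM in abemaciclib-treated knockout cells, against 36.6, 34.9, 36.6 and 38.1 CPM in vehicle-treated knockout cells, a log2 fold change of -1.08 (SE 0.0572, limma adjusted p = 3.8e-17). It had 21.8, 20.5, 20.9 and 21.7 CPM in abemaciclib-treated control cells, against 50.4, 49.0, 53.2 and 51.1 CPM in vehicle-treated control cells, a log2 fold change of -1.22 (limma adjusted p = 8.7e-19). Every group was separate from the others. FEN1, the flap endonuclease, averaged 74.6 CPM in abemaciclib-treated knockout cells, 190 CPM in vehicle-treated knockout cells, 95.1 CPM in abemaciclib-treated control cells and 186 CPM in vehicle-treated control cells. LIG1, the ligase that joins the fragments, was at 36.2% of its vehicle mean in knockout cells and 50.8% in control cells.

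All 4 fork protection genes were lower in both genotypes. CLSPN (chr1:35720218-35769967, minus strand), the adaptor claspin that links the fork to the checkpoint kinase CHK1, had 2.01, 3.90, 3.23 and 1.997 CPM in abemaciclib-treated knockout cells, against 22.2, 24.6, 24.003 and 21.0 CPM in vehicle-treated knockout cells, a log2 fold change of -2.69 (SE 0.111, limma adjusted p = 3.1e-20). It had 6.35, 5.52, 6.37 and 6.00 CPM in abemaciclib-treated control cells, against 20.3, 19.3, 22.2 and 18.9 CPM in vehicle-treated control cells, a log2 fold change of -1.58 (limma adjusted p = 4.8e-14). CLSPN in knockout cells was the largest fall of the 47 genes in either genotype. TIMELESS and TIPIN, which form a complex that steadies the fork, had log2 fold changes of -0.93 and -0.67 in knockout cells and of -0.82 and -0.77 in control cells. WDHD1, which tethers polymerase alpha to the helicase, had -0.98 and -0.65.

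The 4 chromatin assembly genes had a median log2 fold change of -1.52 in knockout cells and -1.06 in control cells. ASF1B (chr19:14119509-14136956, minus strand), a histone H3-H4 chaperone, had 13.1, 12.7, 10.6 and 10.5 CPM in abemaciclib-treated knockout cells, against 59.4, 62.3, 57.3 and 56.0 CPM in vehicle-treated knockout cells, a log2 fold change of -2.24 (SE 0.0644, limma adjusted p = 9.6e-25). It had 19.3, 21.6, 22.9 and 21.8 CPM in abemaciclib-treated control cells, against 57.7, 64.6, 61.3 and 61.0 CPM in vehicle-treated control cells, a log2 fold change of -1.47 (limma adjusted p = 1.4e-19). The genotypes overlapped under vehicle and were apart under abemaciclib. CHAF1A (chr19:4402662-4445018, plus strand), the large subunit of the chromatin assembly factor that PCNA recruits, had 7.87, 7.79, 8.15 and 8.08 CPM in abemaciclib-treated knockout cells, against 22.3, 22.5, 18.7 and 21.2 CPM in vehicle-treated knockout cells, a log2 fold change of -1.30 (SE 0.0737, limma adjusted p = 2.1e-16). It had 14.8, 14.1, 11.7 and 13.005 CPM in abemaciclib-treated control cells, against 23.0, 21.5, 22.0 and 21.7 CPM in vehicle-treated control cells, a log2 fold change of -0.68 (limma adjusted p = 1.4e-09). It had the same arrangement as ASF1B, with the lowest group in abemaciclib-treated knockout cells.

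ATAD2, a bromodomain ATPase that binds acetylated histones on replicated chromatin, had 20.3, 21.5, 19.8 and 21.0 CPM in abemaciclib-treated knockout cells, against 74.1, 68.0, 65.9 and 70.1 CPM in vehicle-treated knockout cells, a log2 fold change of -1.70 (SE 0.0586, limma adjusted p = 1.7e-22). It had 39.6, 32.6, 32.5 and 31.8 CPM in abemaciclib-treated control cells, against 71.9, 78.9, 78.2 and 69.9 CPM in vehicle-treated control cells, a log2 fold change of -1.11 (limma adjusted p = 2.5e-17). Replicate 1 of the abemaciclib-treated control cells stood above the other 3, and the genotypes were still apart under abemaciclib. CHAF1B, the middle subunit of the same assembly factor as CHAF1A, had log2 fold changes of -1.34 and -1.01.

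**Figure D3:**
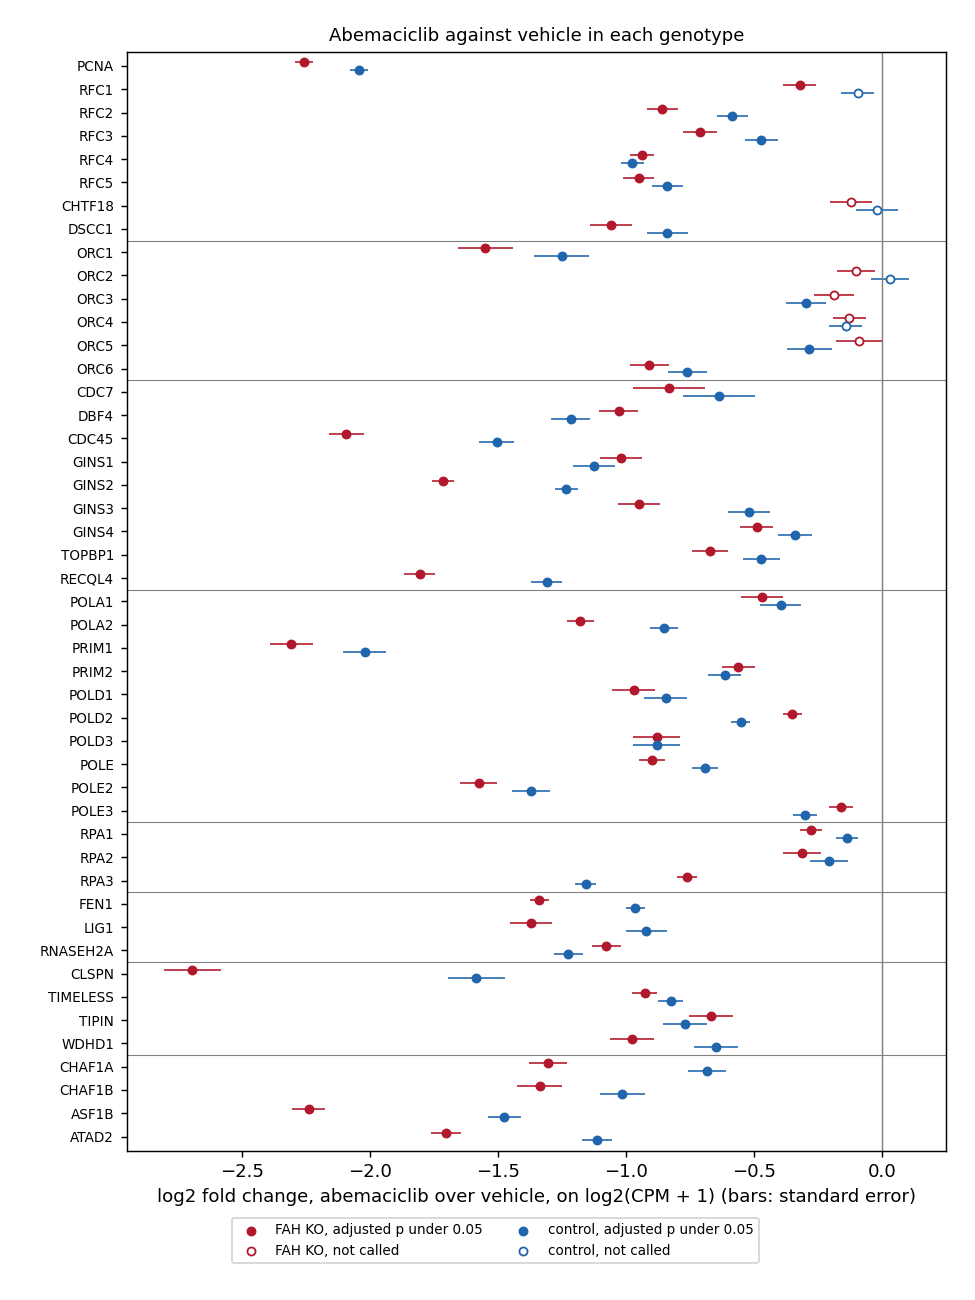
Log2 fold change, abemaciclib over vehicle, on the log2(CPM + 1) scale for each of the 47 genes, by role (bars, standard error), with knockout cells above control cells in each row and open points for genes not called. Points reach -2.69 for CLSPN in knockout cells, and the open points belong to RFC1, CHTF18 and ORC2 to ORC5.

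**Figure D4:**
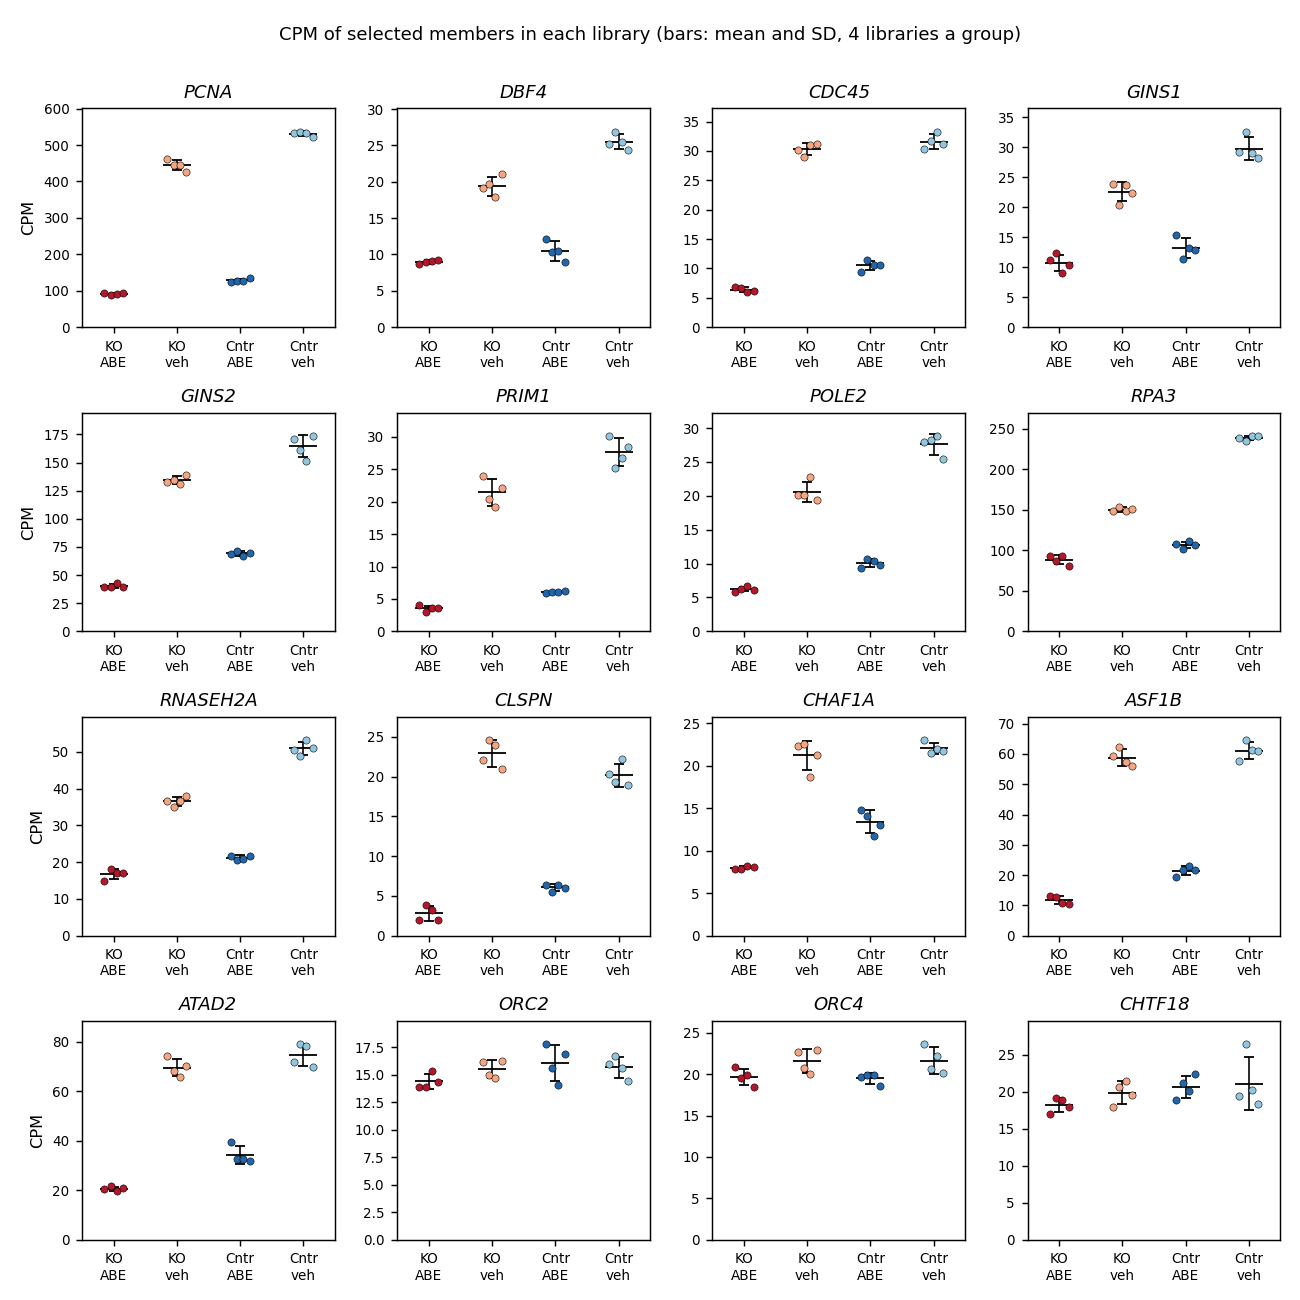
CPM of 16 of the genes in every library, in the order abemaciclib-treated knockout (KO ABE), vehicle-treated knockout (KO veh), abemaciclib-treated control (Cntr ABE) and vehicle-treated control (Cntr veh) cells, each axis from 0 (bars, mean and SD of 4 libraries). PCNA lies at 88.4 to 95.1 CPM in abemaciclib-treated knockout cells and at 523 to 536 CPM in vehicle-treated control cells, while the 4 groups of ORC2 and of CHTF18 overlap.

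Under abemaciclib, knockout cells held less of these transcripts than control cells. Of the 47 genes, 32 were lower in knockout cells, where 11.3% of all tested genes were lower, and 0 were higher, where 18.6% of all tested genes were. The median log2 fold change was -0.27, beside 0.04 for all tested genes, and 43 of the 47 values were below 0. All knockout libraries lay below all control libraries for 28 of the 47 genes, and for 10.1% of all tested genes. On the log2(CPM + 1) scale no fall of the 47 reached 2-fold, which 0.345% of all tested genes did. By mean CPM, CLSPN in knockout cells was at 45.9% of its level in control cells. Rescaling turned the split of all tested genes from 1837 lower and 3020 higher into 2380 lower and 2179 higher, and it called 37 of the 47 genes lower, with CHTF18, ORC2, DBF4, POLA1 and PRIM2 added.

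By role, the calls covered 7 of 8 clamp and loader genes, 2 of 6 genes of the origin recognition complex, 7 of 9 of origin firing, 4 of 10 polymerase and primase genes, 2 of 3 of replication protein A, 3 of 3 of Okazaki fragment processing, 3 of 4 of fork protection and 4 of 4 of chromatin assembly. The chromatin assembly genes had the lowest median, at -0.69. The 5 largest falls were those of CLSPN at -0.93 (SE 0.111, limma adjusted p = 4.2e-08), ASF1B at -0.82 (SE 0.0644, limma adjusted p = 4.0e-12), GINS2 at -0.77 (SE 0.0431, limma adjusted p = 7.0e-16), ATAD2 at -0.69 (SE 0.0586, limma adjusted p = 2.2e-11) and CHAF1A at -0.68 (SE 0.0737, limma adjusted p = 6.6e-09). In all 5 every knockout library was below every control library, as the values given above show. PCNA had a log2 fold change of -0.47 (SE 0.0339, limma adjusted p = 4.2e-13), and its mean in knockout cells was 71.9% of that in control cells.

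The other 15 genes were not called. They were CHTF18, ORC2, ORC3, ORC4, ORC5, CDC7, DBF4, POLA1, PRIM2, POLD1, POLD2, POLD3, POLE3, RPA2 and TIPIN. TIPIN had the highest value of the 47, at 0.09 (limma adjusted p = 0.46). Some calls changed when 1 library was left out. GINS1 (-0.28, limma adjusted p = 0.011) lost its call without knockout abemaciclib replicate 3 (-0.20, limma adjusted p = 0.0723) or control abemaciclib replicate 1 (-0.21, limma adjusted p = 0.0596). GINS4 (-0.19, limma adjusted p = 0.024) lost it without knockout abemaciclib replicate 2 or 4 or control abemaciclib replicate 2, with limma adjusted p from 0.0519 to 0.0581. Calls appeared for POLD1 without knockout abemaciclib replicate 1 (-0.22, limma adjusted p = 0.0471), PRIM2 without control abemaciclib replicate 2 (-0.20, limma adjusted p = 0.0185), ORC2 without control abemaciclib replicate 3 (-0.20, limma adjusted p = 0.0421), and DBF4 and POLD3 without control abemaciclib replicate 4 (each at -0.26, limma adjusted p = 0.011 and 0.0237). Of the 8 cycling markers, 7 were lower in knockout cells under abemaciclib, with a median of -0.46, and MKI67 had a log2 fold change of -1.09 (limma adjusted p = 1.2e-16). Their part in the result was not tested.

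Under vehicle fewer of the 47 genes were called between genotypes. Of them, 15 were lower in knockout cells, where 13.1% of all tested genes were lower, and 0 were higher, where 24.6% of all tested genes were. The median log2 fold change was -0.11, beside 0.06 for all tested genes. With rescaled libraries, all tested genes split into 2980 lower and 2818 higher, against 2121 and 3987 as deposited, and 22 of the 47 genes were lower. No fall of the 47 reached 2-fold, which 0.197% of all tested genes did.

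The largest fall under vehicle was that of RPA3, at -0.66 (SE 0.0396, limma adjusted p = 2.7e-15), with 148 to 154 CPM in knockout cells, against 235 to 241 CPM in control cells. RNASEH2A had -0.47 (SE 0.0572, limma adjusted p = 4.8e-08), POLE2 -0.41 (SE 0.0727, limma adjusted p = 3.3e-05), GINS1 -0.38 (SE 0.0831, limma adjusted p = 0.00041) and DBF4 -0.38 (SE 0.0759, limma adjusted p = 0.00016). For each of these 5 genes all knockout libraries lay below all control libraries. PCNA had -0.26 (SE 0.0339, limma adjusted p = 2.1e-07), at 83.7% of the control mean.

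By role, 2 of 8 clamp and loader genes, 1 of 6 of the origin recognition complex, 4 of 9 of origin firing, 5 of 10 polymerase and primase genes, 1 of 3 in each of replication protein A and Okazaki fragment processing, 1 of 4 of fork protection and 0 of 4 of chromatin assembly were lower under vehicle. The 4 chromatin assembly genes had log2 fold changes from -0.15 to -0.06, and with rescaled libraries ATAD2 (-0.16, limma adjusted p = 0.0157) and CHAF1B (-0.21, limma adjusted p = 0.0488) were called. CLSPN had 22.2, 24.6, 24.003 and 21.0 CPM in vehicle-treated knockout cells, against 20.3, 19.3, 22.2 and 18.9 CPM in vehicle-treated control cells. Its log2 fold change of 0.18 was the highest of the 47 and was not called (SE 0.111, limma adjusted p = 0.22), though it was with these 2 groups fitted alone (limma adjusted p = 0.0350). The call for TIMELESS (-0.13, limma adjusted p = 0.038) was lost without knockout vehicle replicate 2, 3 or 4 or control vehicle replicate 2 or 3, with limma adjusted p from 0.0639 to 0.153. PRIM2 (-0.19, limma adjusted p = 0.021) lost its call without knockout vehicle replicate 1 (-0.18, limma adjusted p = 0.0505) or control vehicle replicate 1 (-0.15, limma adjusted p = 0.0981), and DSCC1 gained one without control vehicle replicate 2 (-0.22, limma adjusted p = 0.049). Of the 8 cycling markers, 6 were lower in knockout cells under vehicle, with a median of -0.27, and MKI67 was not called (-0.09, limma adjusted p = 0.24). Their part in the result was not tested.

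The comparisons of genotypes under abemaciclib and under vehicle share no library. They called 11 of the 47 genes lower in both, where 6.21% of all tested genes were, namely PCNA, RFC4, ORC6, GINS1, GINS2, TOPBP1, PRIM1, POLE2, RPA3, RNASEH2A and TIMELESS. Another 21 were called lower under abemaciclib and not under vehicle, where 5.12% of all tested genes were. DBF4, PRIM2, POLD2 and POLE3, 4 of the 47, were called lower under vehicle and not under abemaciclib, where 6.87% of all tested genes were. Under abemaciclib these 4 were also called in some other settings, DBF4 with a pseudocount of 0.1 (limma adjusted p = 0.0487) and, like PRIM2 (limma adjusted p = 0.0345), with rescaled libraries (limma adjusted p = 0.0157), and DBF4, POLD2 and POLE3 under quantile normalization (limma adjusted p = 0.0312, 0.0294 and 0.0360). Across the 47 genes, the log2 fold changes between genotypes under abemaciclib and under vehicle correlated with Pearson's r of 0.10 and Spearman's rho of 0.18. Whether an effect differed between treatments was tested by the interaction.

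**Figure D5:**
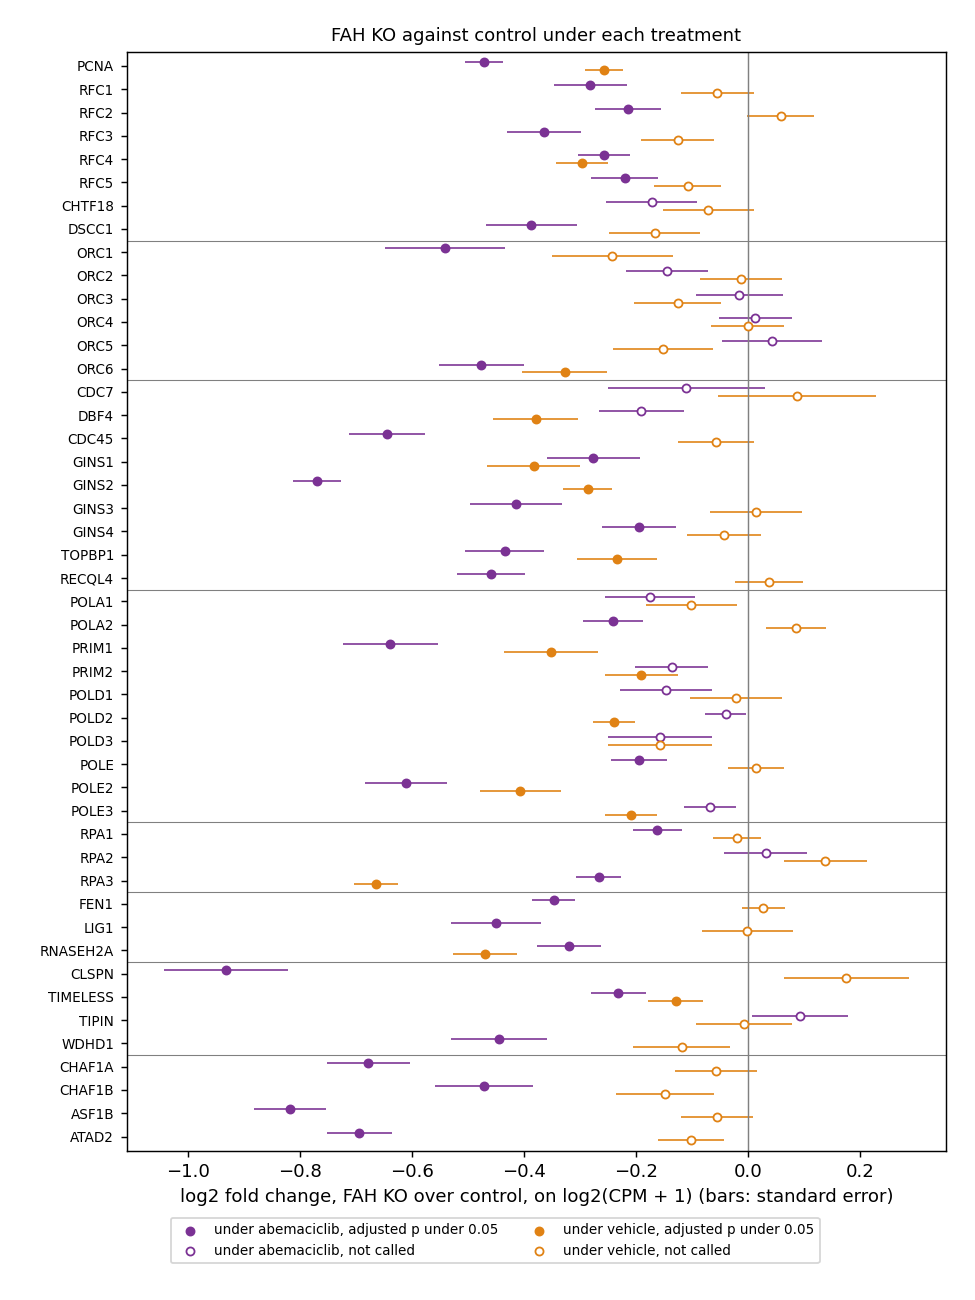
Log2 fold change, FAH knockout over control, on the log2(CPM + 1) scale for each of the 47 genes, by role (bars, standard error), with abemaciclib above vehicle in each row and open points for genes not called. CLSPN lies at -0.93 under abemaciclib and 0.18 under vehicle, and RPA3 at -0.27 under abemaciclib and -0.66 under vehicle.

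The interaction is the log2 fold change of abemaciclib in knockout cells minus that in control cells, so a negative value is a larger fall in knockout cells. It was called negative for 13 of the 47 genes, where 6.16% of all tested genes were, and positive for 2 of 47, where 4.68% were. The median was -0.20, beside -0.03 for all tested genes, and 34 of the 47 values were below 0. CLSPN had the largest value, at -1.11 (SE 0.157, limma adjusted p = 6.2e-06), and it alone of the 47 passed a difference of 2-fold, which 0.105% of all tested genes did in the same direction. Its knockout libraries kept 12.1% of the vehicle mean and its control libraries 30.0%.

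Next came ASF1B at -0.76 (SE 0.0910, limma adjusted p = 3.1e-07), CHAF1A at -0.62 (SE 0.104, limma adjusted p = 7.7e-05), ATAD2 at -0.59 (SE 0.0829, limma adjusted p = 4.8e-06) and CDC45 at -0.59 (SE 0.0964, limma adjusted p = 5.5e-05). In these 5 genes the genotypes overlapped or lay close under vehicle and stood apart under abemaciclib. RECQL4 (-0.50), GINS2 (-0.48), LIG1 (-0.45), GINS3 (-0.43), FEN1 (-0.37), POLA2 (-0.33), RFC2 (-0.27) and PCNA (-0.21, SE 0.0480, limma adjusted p = 0.0024) completed the negative calls. By role these were 3 of 4 chromatin assembly genes, 2 of 3 of Okazaki fragment processing, 4 of 9 of origin firing, 2 of 8 of the clamp and its loaders, 1 of 10 of polymerases and primase and 1 of 4 of fork protection. None of the 6 genes of the origin recognition complex was called, with values from -0.30 to 0.19.

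The 2 positive calls were RPA3, at 0.40 (SE 0.0560, limma adjusted p = 5.5e-06), and POLD2, the second subunit of polymerase delta, at 0.20 (limma adjusted p = 0.0099). POLD2 had 119 to 123 CPM in abemaciclib-treated knockout cells, 150 to 160 CPM in vehicle-treated knockout cells, 120 to 129 CPM in abemaciclib-treated control cells and 175 to 192 CPM in vehicle-treated control cells. For both genes the genotypes were farther apart under vehicle than under abemaciclib. The call for POLD2 was lost under quantile normalization (0.14, limma adjusted p = 0.0877) and in a limma fit with no trend (0.20, limma adjusted p = 0.0602). PRIM1, whose log2 fold changes under abemaciclib were near those of PCNA, had an interaction of -0.29 that was not called (SE 0.119, limma adjusted p = 0.12), but was with a pseudocount of 0.1 (-0.40, limma adjusted p = 0.0436).

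Some of these calls also changed when 1 library was left out. RFC2 was called close to the threshold (-0.27, limma adjusted p = 0.031). RFC2 lost its call without any of 7 libraries, knockout abemaciclib replicates 3 and 4, knockout vehicle replicate 3, control abemaciclib replicates 2 and 3 and control vehicle replicates 1 and 3, with limma adjusted p from 0.051 to 0.0892. Without control abemaciclib replicate 4, negative calls appeared for RFC1 (-0.27), POLE (-0.27), WDHD1 (-0.38) and CHAF1B (-0.41). Without knockout abemaciclib replicate 1 one appeared for RFC1 (-0.28), without knockout abemaciclib replicate 2 for RFC3 (-0.30) and WDHD1 (-0.38), without knockout vehicle replicate 2 for POLE (-0.23), and without knockout vehicle replicate 3 for WDHD1 (-0.40). A positive call appeared for POLE3 without control abemaciclib replicate 1 (0.18, limma adjusted p = 0.0495). Of the 8 cycling markers, 3 had a negative interaction, with a median of -0.22, and MKI67 had -1.0 (limma adjusted p = 1.0e-10). Their part in the result was not tested.

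Some of these genes may share reads with other genes. Genes whose values were whole reads in 8 or fewer of the 16 libraries were taken as uncertain for that reason, and these were 14 of the 47, PCNA, RFC2, RFC4, ORC4, ORC6, DBF4, GINS2, POLA2, PRIM1, PRIM2, POLD2, RPA3, FEN1 and TIPIN. In the GENCODE annotation of GRCh38, exons of RPA3, GINS2 and RFC4 overlap those of UMAD1, GSE1 and EIF4A2 on the opposite strand, those of PRIM1 overlap NACA on the same strand and HSD17B6 on the opposite one, and PCNA has copies named as pseudogenes. Among the other 33 genes, 29 were lower under abemaciclib in knockout cells and 30 in control cells, beside 27.2% and 29.7% of the 11261 tested genes with whole reads in more than 8 libraries. In knockout against control cells, 23 of the 33 were lower under abemaciclib, beside 11.6% of those tested genes, and 6 of 33 under vehicle, beside 11.5%. These 6 include RNASEH2A, just past the cut with whole reads in 9 libraries, whose exons overlap those of THSD8 on the same strand. The remaining 9 of the 15 calls under vehicle thus belong to the 14 uncertain genes, while 16.7% of the 4957 tested genes of that kind were called. A negative interaction was called for 8 of the 33 and a positive one for 0, beside 6.62% and 3.38% of those tested genes. RPA3 and POLD2, the 2 positive interactions, are both among the 14.

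Other replication genes outside the 47 gave a similar count. This list held 32 genes, among them the MCM helicase and its loaders, and 31 were analysed here. In knockout cells 29 of 31 were lower under abemaciclib, where 27.4% of all tested genes were, and 1 was higher, where 11% were. In control cells 30 of 31 were lower, where 31.1% of all tested genes were, and 1 was higher, where 19.6% were. The medians of the 31 were -0.97 and -0.82. The largest falls in knockout cells were those of MCM10, a helicase activator, at -2.94, CDT1, which loads the MCM helicase, at -2.27, and TICRR, needed for firing, at -2.23. In control cells they were MCM10 at -1.87, GMNN, the inhibitor of CDT1, at -1.86 and TICRR at -1.76. The higher gene was POLD4, the smallest subunit of polymerase delta, at 0.14 in knockout cells (limma adjusted p = 0.014) and 0.40 in control cells (limma adjusted p = 7.2e-09). The 3 larger subunits of that polymerase, POLD1, POLD2 and POLD3, were lower in both genotypes.

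In knockout against control cells under abemaciclib, 18 of these 31 were lower, where 11.3% of all tested genes were. The histone chaperone RBBP4, at 0.16, was the 1 called higher, where 18.6% of all tested genes were. MCM10 had -1.12 (limma adjusted p = 1.4e-12), CDT1 -1.06 (limma adjusted p = 2.0e-15) and CDC6, another MCM loader, -0.80 (limma adjusted p = 2.9e-09). Under vehicle 9 of the 31 were lower, where 13.1% of all tested genes were, and 1, SUPT16H at 0.13, was higher, where 24.6% were. The largest falls of the 31 were those of MTBP at -0.42, CDT1 at -0.38 and TONSL at -0.31. The interaction was negative for 12 of the 31, where 6.16% of all tested genes were, and positive for 2, where 4.68% were. The positive ones were SSRP1 at 0.16 and RNASEH2C at 0.28. The largest values of the 31 were those of MCM10 at -1.07, CDC6 at -0.77 and CDT1 at -0.67.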

How the data were processed

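The 16 RNA libraries of T47D cells form 4 groups of 4 by genotype and treatment, as their titles give them. Per the labels' protocols, a commercial service extracted the RNA, made cDNA from mRNA and tagged it by tagmentation. Reads were aligned with STAR 2.7.11 to GRCh38, handled with SAMtools 1.22.1, counted with featureCounts of Subread 2.1.1 and summarised with MultiQC 1.32, per the submitters' processing notes. Strand setting, annotation release and handling of reads with several matches are not given in the sources used, so reads of overlapping genes on opposite strands cannot be told apart.

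The deposited values are CPM, and each library's column sums to 1000000. The step between low values gave 0.0836 to 0.101 CPM for 1 read and so the depth, but only 70.2 to 71.8% of values above 0 were whole reads within 0.02 reads, so no count test was run. The 92 spike-in features were left out. Values were used as log2(CPM + 1), with genes kept at 1 CPM in at least 4 libraries. One model of 4 group means over the 16 libraries was fitted to the 16218 genes (limma 3.58.1, R 4.3.3, empirical Bayes with a mean trend). Tests were two-sided, and p-values were adjusted by Benjamini and Hochberg's method across the tested genes of each comparison. The script was tested on simulated data. No 2 libraries held identical values.

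The 47 genes and all lists were chosen with earlier results of these data known. Any of the 47 could be named. The value in each library was given for the 5 called genes with the largest falls in each group comparison. The rule also held the 2 largest called increases of each, of which there were none. Library values were given as well for the 5 largest called interactions, PCNA, RFC1, ORC1 and ORC2. Of the other genes not called under abemaciclib, ORC3 and ORC5 had library values for knockout cells only, and CHTF18 and ORC4 had ranges. Of the other replication genes, the 3 largest called changes and the called increases had log2 fold changes and no CPM. MKI67 had its group means. Genes brought in by a setting that changed their call were named after their values were seen. Intervals were not given, since SDs over libraries hold the counting error. No pairing of libraries by replicate number was seen. Over 24 pairs of libraries with the same number, deviations from group means correlated at 0.00296 on average (-0.0367 to 0.0603). Alternatives were pseudocounts of 0.1 and 0.5, no filter, median-of-ratios rescaling, quantile normalization, no trend, a replicate block, the 2 compared groups alone and each library left out. Figures were drawn with matplotlib 3.10.9 in Python 3.11.15.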

Additional observations from a re-analysis of the deposited data

Results flagged for a closer look

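In 15 of the 47 genes the effect of abemaciclib differed between knockout and control cells by the interaction test of limma. Negative differences were called in 13 of the 47, where 6.16% of all tested genes had one. Positive ones were called in 2 of the 47 (4.26%), near the 4.68% of all tested genes. The difference, as log2 fold change in knockout minus that in control cells, was -1.11 for CLSPN, -0.76 for ASF1B, -0.62 for CHAF1A, -0.59 for ATAD2, -0.59 for CDC45, -0.50 for RECQL4, -0.48 for GINS2, -0.45 for LIG1, -0.43 for GINS3, -0.37 for FEN1, -0.33 for POLA2, -0.27 for RFC2 and -0.21 for PCNA. It was 0.20 for POLD2 and 0.40 for RPA3.

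A library stood apart from the other 3 of its group in 2 of 52 sets of 4 values, those of 13 genes in 4 groups, where chance marks about 1 in 20. GINS2 had 42.9 CPM in knockout abemaciclib replicate 3, against 39.3 to 39.8 CPM in the other 3 libraries. ATAD2 had 39.6 CPM in control abemaciclib replicate 1, against 31.8 to 32.6 CPM in the other 3.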

How the results depend on the processing

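Counts of the 47 genes called lower ran over the alternatives, other than those that leave out a library, from 41 to 43 for abemaciclib in knockout cells, 40 to 43 in control cells, 30 to 37 for knockout against control under abemaciclib, 13 to 22 under vehicle and 12 to 15 for the interaction. With each library left out in turn they ran from 42 to 43, 42 to 44, 31 to 34, 14 to 15 and 12 to 17 in the same order. The count of positive interactions was 2, against 1 under quantile normalization and 1 in limma without the trend, and 2 to 3 with a library left out. For knockout against control under vehicle the count called higher was 0, against 1 with the 2 compared groups alone, and 0 with any library left out, as in the other 3 group comparisons. Without the filter on low values, the calls for PRIM2 and TIMELESS under vehicle, GINS1 and GINS4 under abemaciclib, RPA2 for abemaciclib in control cells and RFC2 in the interaction missed the threshold. No direction was reversed among the called values. The replicate block gave the same counts lower (15 under vehicle, 32 under abemaciclib, 42 and 43 for abemaciclib, 13 for the interaction) and higher. No same-numbered pair of libraries correlated above 0.1 in its deviations from group means. These deviations hold the counting error, so they cannot decide whether the numbers mark a shared culture or day. Levels under about 5 CPM rest on few reads, so the size of a change is least certain for CDC7, ORC1, CLSPN and PRIM1 in abemaciclib-treated knockout cells. The causes of the changes named here were not tested.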
